A study of Homo sapiens with 6 samples.

Results

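The background editing of an APOBEC1 labelling experiment was examined by setting 2 enzyme-only libraries against 2 buffer-only libraries of methanol-fixed HEK293T, a line derived from human embryonic kidney. All listed pairs of isoform and edited position in these 4 libraries were taken, which gave 411685 of the 839700 pairs in the 6 libraries of the series. Enzyme-only cells received Apo1-Nb, a fusion of rat APOBEC1 and an anti-rabbit nanobody purified from bacteria, without any RBFOX2 antibody. Buffer-only cells received neither Apo1-Nb nor antibody, and the other 2 libraries of the series (RBFOX2-INSCRIBE) received both. All slides were incubated overnight in editing buffer, and RNA was read as full-length PacBio molecules. The titles number the enzyme-only libraries 2 and 3, and these numbers are used here. The titles name the cells HEK293T and another label field names them HEK293XT. The study's methods give the line as Lenti-X 293T, a clone of HEK293T.

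APOBEC1 is a cytidine deaminase that turns C into U in RNA. It is known for editing the apolipoprotein B transcript in the intestine and for acting on other A- and U-rich 3' UTRs, and in biotechnology it is fused to RNA-binding proteins to mark their targets. A C-to-U change read in a library without enzyme can come from an unlisted variant, an error of reverse transcription or sequencing, or endogenous deamination, so the buffer-only libraries give the level that exists before the enzyme is added. With 2 libraries in each group, the exact permutation test over libraries cannot go below p = 0.333 (two-sided), and every difference of single values below is therefore given with both libraries of each group. The replicates were separate slides of one line. With so few libraries, limma's p-values rest mostly on a spread pooled over the features fitted, not on each feature's own spread between slides.

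The sites with the highest mean edit fraction over both enzyme-only libraries, among those in neither buffer-only library, are printed first. Further conditions of the rule that took them are given with the processing. The sites printed are extremes and do not stand for all edited Cs. The median fraction of a site was 0.763% and 0.613% in enzyme-only replicates 2 and 3. The sequences are 5′ to 3′ on the isoform, from hg38, with the edited C and the base before it in capitals.
RPS6KB1: aatgattggACatacaccttt
RBM3: cattggttgACaataagccag
PLEKHA3: ctggtgaagACacaaatgaag
ZNF431: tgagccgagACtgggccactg
FDX1: tttctagggACagggttttac
FER: agttgcctcTCaggataaatg
CEP135: aaatcatgaACatggacacaa
GRSF1: gtggcctggTCttggctcact
The rule took 10 sites, of which 8 are shown. Of the 10, 7 had A before the edited C, 2 had U and 1 had G, and annotation placed 9 of them in 3' UTRs. All 8 sites shown lie in 3' UTRs.

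The RPS6KB1 window lies at chr17:59948581-59948601 on the plus strand, and 57.1% and 27.3% of its reads were edited in enzyme-only replicates 2 and 3. RPS6KB1 encodes the ribosomal protein S6 kinase. The RBM3 window, in the mRNA of a cold-inducible RNA-binding protein, lies at chrX:48580857-48580877 (plus strand) and had 50% and 20%. The FDX1 window, in the mRNA of the electron donor ferredoxin, lies at chr11:110464091-110464111 (plus strand) and had 14.3% and 22.2%. Of the 8 sites shown, FDX1 alone had the higher fraction in replicate 3.

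PLEKHA3 (chr2:178505167-178505187, plus strand) had 50% and 7.69% of its reads edited. ZNF431 (chr19:21188201-21188221, plus strand) had 50% and 6.67%. The remaining 3 sites had lower fractions in replicate 2 than these. FER (chr5:109189212-109189232, plus strand) had 20% and 8.33%, CEP135 (chr4:56031441-56031461, plus strand) had 22.2% and 5.88%, and GRSF1 (chr4:70816291-70816311, minus strand) had 16.7% and 9.09%. The number of reads behind these fractions is unknown. Values such as 50%, 20%, 7.69% and 6.67% are what a single edited read among few reads could give. High fractions here may thus rest on few reads.

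For contrast, the sites with the highest fraction in both buffer-only libraries and in none of the other 4 libraries are printed in the same way. They were chosen after their values were seen.
SF3A2: cttTCtttgcccgcc
DSC3: cccccccccCCcttttttttt
RPS19: accttatccTCtgagccttcg
CCDC18: gtgggtctcTCcccagcgacg
None of the 4 had A before the edited C. SF3A2 (chr19:2236824-2236838, plus strand, 5' UTR at the start of the isoform) had 66.7% and 33.3%, DSC3 (chr18:30992167-30992187, minus strand, 3' UTR) 20% and 66.7%, RPS19 (chr19:41872458-41872478, plus strand, 3' UTR) 25% and 16.7%, and CCDC18 (chr1:93180853-93180873, plus strand, 5' UTR) 14.3% in both buffer-only libraries. Over all 2055 sites of this kind, 11.2% had A before the edited C and 51.8% had G. Read numbers are unknown here too, and fractions such as 66.7%, 33.3% and 14.3% may rest on few reads.

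One property of the lists bears on every count of shared sites. Of the sites on the isoform's strand, none was listed in both enzyme-only and both RBFOX2-INSCRIBE libraries, whereas 26344 were listed in 3 of these 4. Sites listed in both buffer-only and both RBFOX2-INSCRIBE libraries numbered 1208, and sites in both buffer-only and both enzyme-only libraries numbered 549. The study's methods state that edits present in every sample were discarded as likely polymorphisms. Cs that were edited in all 4 enzyme-treated libraries are therefore not among the sites described here. The sites shared by both enzyme-only libraries, including the 8 shown, are those that escaped at least 1 RBFOX2-INSCRIBE library. Whether the removal also reached the buffer-only lists is unknown. A site listed in buffer alone, as in the contrast above, may thus have been edited in all 4 enzyme-treated libraries and removed from their lists.

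The enzyme-only libraries held more edited Cs than the buffer-only libraries, and they differed from each other by more than they differed, at the lower end, from buffer. On the isoform's strand, enzyme-only replicates 2 and 3 listed 86019 and 153741 distinct sites, and the buffer-only libraries listed 72721 and 71420. The mean was 1.66 times the buffer-only mean. The groups did not overlap, but replicate 2 alone stood at 1.19 and replicate 3 alone at 2.13 times the buffer-only mean. On the opposite strand, where a change reads as G-to-A of the isoform, the order was different, with 4421 and 6215 sites in enzyme-only replicates 2 and 3 and 6328 and 6193 in buffer-only replicates 1 and 2. The number of isoform-strand sites for each opposite-strand site was 19.5 and 24.7 with enzyme and 11.5 in both buffer-only libraries. Enzyme-only replicate 2 had the fewest sites on the opposite strand, and read numbers are unknown, so total counts of sites mix the editing with how much was read. Shares of edited Cs and ratios of 2 rates within a library are less open to this. Rates set against the buffer-only mean carry the same mixing as the counts.

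The base before the C separated the groups most clearly. In isoforms listed in all 4 libraries (5851 isoforms), 22.8% of all Cs had A before them. Among edited Cs this share was 33.3% and 37.8% in enzyme-only replicates 2 and 3, and 19.1% and 19.6% in buffer-only replicates 1 and 2. The difference of the means was 16.2 percentage points (35.6% ± 3.23 against 19.3% ± 0.394, SD, n = 2 each). Edited Cs with U before them rose in the same way, from 23.1% in both buffer-only libraries to 29.0% and 31.4%. Cs with G before them made up 36.8% and 36.5% of edited Cs in buffer and 24.3% and 20.1% with enzyme. Cs with C before them made up 21.1% and 20.8% in buffer and 13.4% and 10.7% with enzyme.

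The same result was seen as the percentage of all Cs of each kind that were edited. Of the Cs preceded by A, 2.48% and 4.996% were edited in enzyme-only replicates 2 and 3, and 1.19% and 1.21% in the buffer-only libraries. These rates are 2.07 and 4.16 times the buffer-only mean. Of the Cs preceded by U, 1.90% and 3.63% were edited with enzyme and 1.27% and 1.25% without. At Cs preceded by C or G the enzyme-only libraries lay on either side of buffer. Of the Cs preceded by G, 1.68% and 2.46% were edited with enzyme and 2.14% and 2.09% without, and of the Cs preceded by C, 0.850% and 1.204% with enzyme and 1.12% and 1.09% without.

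**Figure D1:**
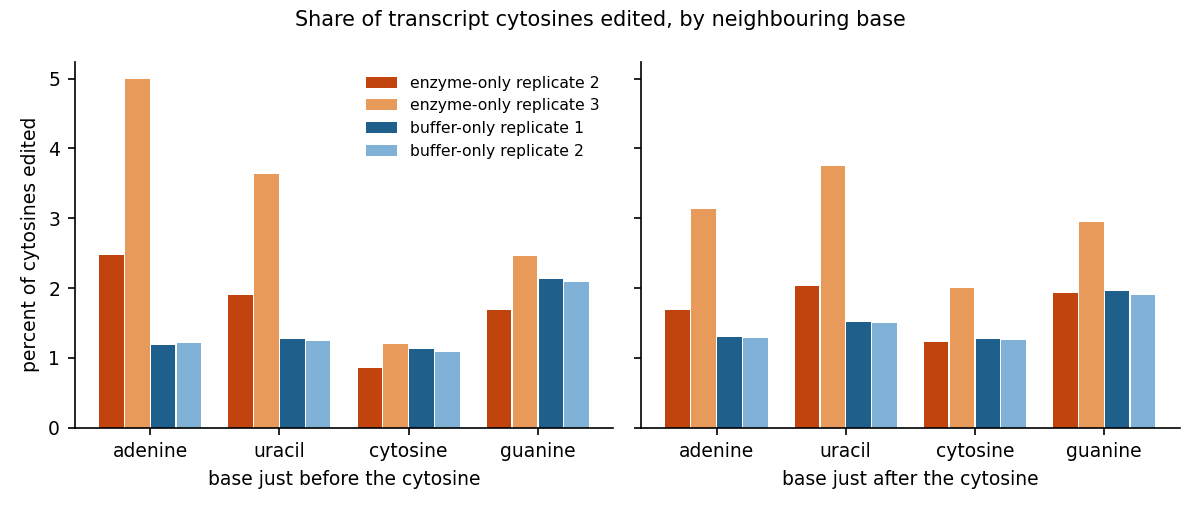
Percentage of all Cs of the isoforms listed in all 4 libraries that were edited (y axis), by the base before (left) or after (right) the C, with 1 bar for each library. Both enzyme-only libraries exceed both buffer-only libraries after adenine and uracil, and lie on either side of them after cytosine and guanine.

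The rate at Cs preceded by A divided by the rate at Cs preceded by G gives a measure in which the amount read largely cancels. This ratio was 1.47 and 2.03 in enzyme-only replicates 2 and 3 and 0.558 and 0.579 in the buffer-only libraries. Edits on the opposite strand showed no such difference. There, the base before the edited C was A in 18.6% and 18.7% of the sites with enzyme and in 18.7% and 18.9% without.

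The base after the C mattered less. Edited Cs followed by U made up 37.9% and 39.4% with enzyme and 33.5% and 33.8% without, and those followed by G made up 10.9% and 9.45% with enzyme and 13.2% and 13.0% without. When both neighbours were considered, ACU had the highest gain, with 3.18% and 6.63% of its Cs edited with enzyme and 1.21% and 1.25% without. These are 2.58 and 5.39 times the buffer-only mean. ACA (2.22 and 4.56 times) and UCA (1.71 and 3.44 times) followed, and CCC had the lowest gain, at 0.748 and 1.02 times.

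With 2 bases on each side, 208 contexts differed in relative rate between enzyme-only and buffer-only libraries by limma at an adjusted p under 0.05. Of all contexts, 74 (28.9%) were higher and 134 (52.3%) lower. Because rates were taken relative to the overall rate of each library, a rise in some contexts lowers the others. With A before the C, 46 of 64 contexts were higher and none was lower. With U before it, 28 were higher and 6 lower, and all 64 contexts with C and all 64 with G before it were lower. On the absolute rate, 45 contexts were higher and none was lower. Without buffer-only replicate 1 or 2 the relative count was 98 or 110.

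UACUA had the largest relative difference of all contexts. Its rate was 3.94% and 8.25% with enzyme and 1.09% and 0.977% without, a log2 difference in relative rate of 1.79 ± 0.16 (SE). UACUC (3.13% and 6.42% against 0.888% and 0.953%) and GACUA (3.51% and 7.72% against 1.01% and 1.17%) came next. The context with the highest buffer-only rate was UGCGG, at 4.24% and 4.25%, and it had 3.47% and 4.61% with enzyme. In this context the enzyme-only libraries lay on either side of the buffer-only libraries.

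The wider surroundings of edited Cs were richer in A and U with enzyme. Over 20 flanking bases, edited Cs had a mean A+U content of 56.6% and 59.2% in enzyme-only replicates 2 and 3 and 52.9% in both buffer-only libraries, while all Cs of the isoforms had 52.1%. The percentage of Cs edited went up with this content by far more in the enzyme-only libraries. Where under 30% of the flanking bases were A or U, 1.14% and 1.42% of Cs were edited with enzyme and 1.32% and 1.29% without. Where 80% or more were A or U, 3.04% and 6.43% were edited with enzyme and 1.51% in both buffer-only libraries.

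The preference for A before the C changed with the surroundings as well. In the least A+U-rich class the ratio of the rates after A and after G was 0.885 and 1.08 with enzyme and 0.593 and 0.614 without. In the richest class it was 2.07 and 2.56 with enzyme and 0.547 and 0.554 without. The ratio in the buffer-only libraries stayed between 0.518 and 0.614 in all 7 classes.

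**Figure D2:**
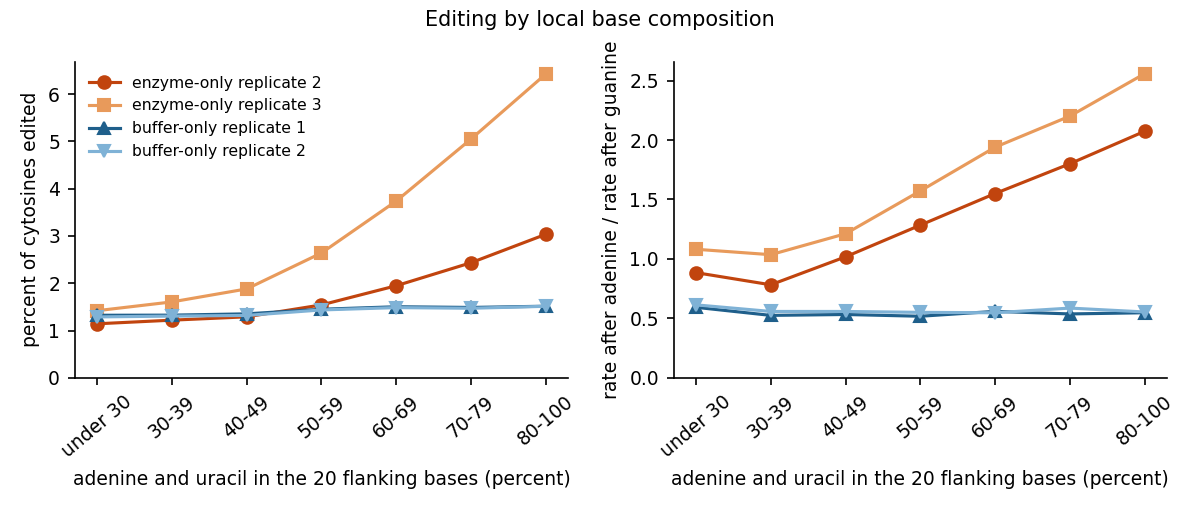
Percentage of Cs edited (left, any base before the C) and ratio of the rates after adenine and after guanine (right), by the A+U content of the 20 flanking bases, with 1 line for each library. Both enzyme-only lines climb, to 3.04% and 6.43% and to ratios of 2.07 and 2.56, while the buffer-only lines stay nearly flat.

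Base by base, the excess of A and U extended to the edge of the region examined. At the position before the edited C, A or U stood in 62.3% and 69.3% of the sites with enzyme, in 42.1% and 42.7% without, and at 48.8% of all Cs. At 10 bases before, the values were 55.2% and 57.3% with enzyme, 52.5% and 52.3% without and 51.8% for all Cs. The position 2 bases before was high in every library, with 59.8% and 61.7% with enzyme and 58.0% in both buffer-only libraries.

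**Figure D3:**
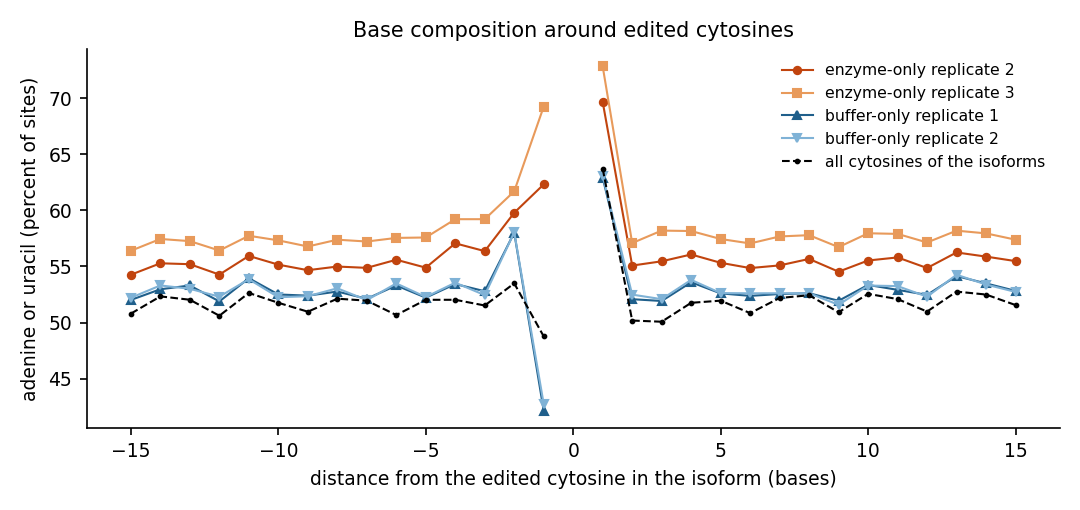
Percentage of edited sites with adenine or uracil (y axis, starting above 0) at each distance from the edited C along the isoform, with 1 line for each library and a dashed line for all Cs. The libraries part most at the base before the C, and the enzyme-only lines stay above the buffer-only lines at every distance drawn.

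At most listed sites only a small share of the reads was edited, in both groups. A site is listed only if a read was edited there, so its fraction also depends on how many reads covered it. The median edit fraction of a site was 0.763% and 0.613% with enzyme and 0.524% and 0.519% without. On the opposite strand the groups overlapped, with 0.709% and 0.549% with enzyme and 0.515% and 0.559% without, and replicate 2 was the highest there too. Sites with at least 2% of reads edited made up 23.3% and 18.4% of sites with enzyme and 17.5% and 17.7% without. The median fraction in enzyme-only replicate 2 was 0.847% at Cs preceded by A and 0.658% at Cs preceded by C, and in replicate 3 it was 0.671% and 0.541%. In the buffer-only libraries these medians were 0.515% and 0.546% in replicate 1 and 0.5% and 0.518% in replicate 2, in the opposite order.

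The share of sites with A before the C was lowest among the rarest edits. At fractions up to 0.2% it was 25.7% and 29.8% with enzyme, between 0.5% and 1% it was 35.1% and 40.9%, and between 20% and 80% it was 36.3% and 38.2%. In the buffer-only libraries it lay between 16.9% and 21.2% in all 8 classes of fraction. Among sites above 80%, where unlisted variants would also fall, enzyme-only replicate 2 had 163 sites with 27.6% preceded by A and replicate 3 had 133 sites with 38.3%.

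Edited Cs moved towards 3' UTRs with enzyme. Of the edited Cs, 50.3% and 54.2% lay in 3' UTRs of protein-coding isoforms in enzyme-only replicates 2 and 3, 43.9% and 43.5% in the buffer-only libraries, and 47.1% of all Cs lay there. The mean difference was 8.50 percentage points (52.2% ± 2.79 against 43.7% ± 0.268, SD, n = 2 each). Coding sequence held 43.1% and 39.8% with enzyme and 47.9% and 48.1% without. The 5' UTRs held 4.29% and 3.56% with enzyme and 5.59% and 5.70% without. Non-coding isoforms held 2.32% and 2.47% with enzyme and 2.62% and 2.63% without.

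The difference by region lay mostly at Cs preceded by A or U. At Cs preceded by A or U, 2.40% and 4.96% of the Cs in 3' UTRs were edited with enzyme, 2.04 and 4.21 times the buffer-only mean. In coding sequence these rates were 2.10% and 3.87%, or 1.503 and 2.77 times the buffer-only mean. In 5' UTRs they were 1.34 and 2.22 times the buffer-only mean. At Cs preceded by C or G, enzyme-only replicate 2 lay below the buffer-only mean in all 4 kinds of region, at 0.598 to 0.799 times, and replicate 3 lay slightly above it, at 1.03 to 1.203 times.

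The rate at Cs preceded by A or U divided by that at Cs preceded by C or G was 2.10 and 2.82 in 3' UTRs, 1.44 and 1.93 in coding sequence and 1.26 and 1.52 in 5' UTRs with enzyme. In the buffer-only libraries it lay between 0.687 and 0.810 in all 4 kinds of region. The order of 3' UTR, coding sequence and 5' UTR was the same in both enzyme-only libraries. This order was not separated from the A+U content of the regions.

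**Figure D4:**
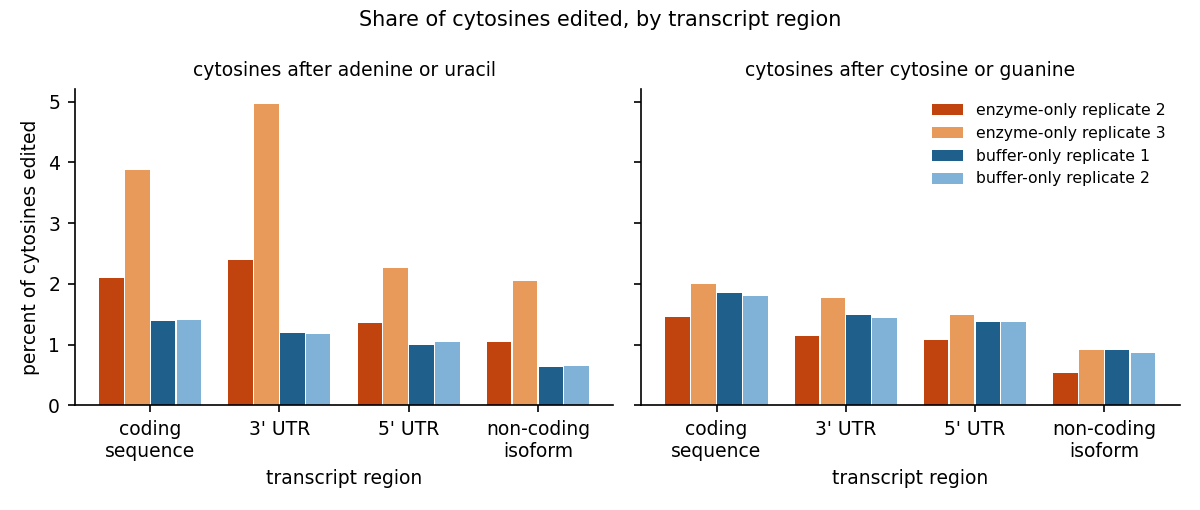
Percentage of Cs edited (y axis) by transcript region for Cs after adenine or uracil (left) and after cytosine or guanine (right), with 1 bar for each library. The enzyme-only bars exceed the buffer-only bars in every region on the left, most of all in 3' UTRs, and stand on either side of them on the right.

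Distance to the 3' end of the isoform changed how many Cs were edited but hardly the preference. At Cs preceded by A, the enzyme-only libraries had 3.15% and 5.20% of Cs edited within 250 bases of the end, 3.92% and 6.76% between 500 and 1000 bases, and 1.40% and 3.004% beyond 4000 bases. The buffer-only libraries also fell at the far end, to 0.760% and 0.767% beyond 4000 bases. The ratio of the rates after A and after G stayed between 1.36 and 1.62 in enzyme-only replicate 2, between 1.95 and 2.13 in replicate 3 and between 0.529 and 0.621 in the buffer-only libraries over the 6 classes of distance. At Cs preceded by G, replicate 2 was level with buffer near the end (2.22% against 2.13% and 2.08% within 250 bases) and below it beyond 4000 bases (0.863% against 1.28% and 1.24%).

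By class of transcript, 1.75% and 3.09% of the Cs of protein-coding isoforms were edited with enzyme and 1.46% and 1.44% without. Retained-intron isoforms (188 isoforms) had 2.12% and 4.04% with enzyme and 2.01% and 2.00% without. Isoforms annotated for nonsense-mediated decay (59 isoforms) had 3.08% and 5.48% against 2.60% and 2.73%. Long non-coding RNAs (78 isoforms) had 0.698% and 1.40% against 0.824% and 0.805%, and there the libraries of the groups overlapped. A mitochondrial group was looked for, but none of the 13 mitochondrially encoded mRNAs was listed in these libraries.

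At the level of genes, most genes had more edited Cs with enzyme but few differences passed limma's test. Of 4209 genes tested, 3580 (85.1%) had a positive log2 difference, with a median of 0.69. When libraries were scaled to the same total, 52.4% did, with a median of 0.038. In 44.4% of the genes both enzyme-only libraries were above both buffer-only libraries, and in 1.31% both were below. By limma, 23 genes were higher at an adjusted p under 0.05 (0.546% of the genes tested) and none was lower. At an unadjusted p under 0.05, 626 genes were higher and 12 lower, and after scaling 217 of the 341 genes under this p were higher. More edited Cs of a gene can come from more editing or from more reads of that gene, and these cannot be told apart here. The count of 23 fell to 0 when libraries were scaled to the same total, when the trend and robust settings were left out, and without enzyme-only replicate 2, enzyme-only replicate 3 or buffer-only replicate 2, and to 1 without buffer-only replicate 1.

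AIMP2, a scaffold of the complex of tRNA synthetases (chromosome 7, 6009272 to 6023834), had the smallest p. It had 24 and 13 edited Cs with enzyme and 0 and 1 without, of 302 Cs, a log2 difference of 4.39 ± 0.73 (SE, adjusted p = 7.62e-06, limma). SLC35A1, the Golgi carrier of CMP-sialic acid (chromosome 6, 87472974 to 87512336), had 8 and 26 against 1 and 0, with a log2 difference of 4.12 ± 0.74 (adjusted p = 7.15e-05, limma). KLHL24, an adaptor of a cullin ubiquitin ligase (chromosome 3, 183635623 to 183684519), had 16 and 17 against 0 and 0. Taking 3 edited Cs per library as the floor, it was at least 5.50-fold higher with enzyme (adjusted p = 0.0237, limma). In these 3 genes the lowest enzyme-only count was 8 and the highest buffer-only count 1.

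Among the others, NUP37, a nuclear pore protein, had 7 and 24 edited Cs with enzyme and 0 and 2 without, and NUP35, also of the pore, had 16 and 11 against 0 and 3. ATP5MG, subunit g of the ATP synthase, had 12 and 16 against 1 and 1, and NDUFB6, an accessory subunit of respiratory complex I, had 14 and 9 against 1 and 1. COQ3, a methyltransferase of ubiquinone synthesis, had 12 and 6 against 2 and 0. SNX7, a sorting nexin, had 11 and 13 against 0 and 2, and FAM135A had 8 and 12 against 0 and 1.

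C22orf39 had 8 and 28 edited Cs with enzyme and 2 and 0 without. PABPC4L, a relative of the poly(A)-binding proteins, had 23 and 45 against 10 and 0. In these genes, KLHL24 aside, the log2 difference was between 2.97 and 4.39. All 23 called genes had low counts, with a mean over the 4 libraries of 5 to 29.75 edited Cs (median 8.75, against 13.5 for all genes tested), and 11 of the 23 had 0 edited Cs in at least 1 buffer-only library.

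**Figure D5:**
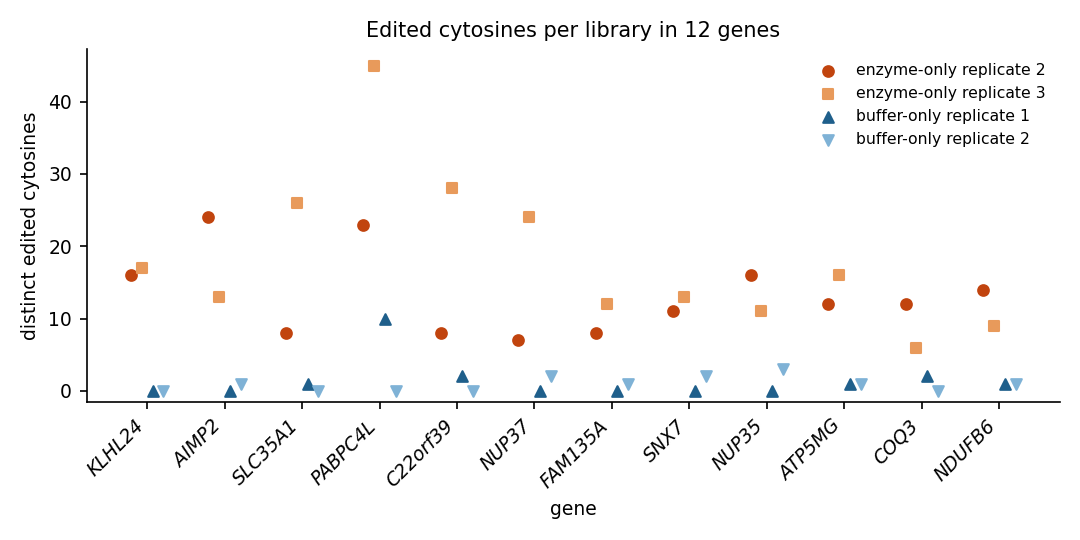
Distinct edited Cs (y axis) in the 12 genes with the largest log2 difference among those called, with 1 point for each library. Every enzyme-only point lies above both buffer-only points of its gene, and the buffer-only points lie at 10 or below.

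No gene was called lower. Among the 5 genes with the smallest unadjusted p whose enzyme-only libraries were both below both buffer-only libraries, NR2C2, a nuclear receptor, had no edited C in either enzyme-only library and 16 and 12 in the buffer-only libraries (adjusted p = 0.097, limma). TES had 0 and 7 against 11 and 8, ARFGAP1 0 and 3 against 7 and 10, PAM 0 and 5 against 11 and 7, and MED26 0 and 5 against 9 and 6. All 5 were at 0 in enzyme-only replicate 2. NR2C2 had 53 and 72 edited Cs in the RBFOX2-INSCRIBE libraries.

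When Cs preceded by A were counted alone, a choice made after seeing the data, 338 genes were higher (18.5% of 1829 tested) and none was lower, with a median log2 difference of 1.63. When Cs preceded by C or G were counted alone, 1 gene was higher (0.0422% of 2372 tested) and the median log2 difference was -0.12. Among the genes above, NUP35 had 10 and 5 edited Cs preceded by A with enzyme and 0 in both buffer-only libraries, and FAM135A had 5 and 6 against 0. AIMP2 also had 8 and 5 edited Cs preceded by C or G with enzyme and 0 in both buffer-only libraries. It was not alone in this, as KLHL24 had 8 and 2 against 0 and 0, and C22orf39 4 and 18 against 2 and 0. NUP35 had 3 and 3 of this kind against 0 and 2, FAM135A 0 and 1 against 0 and 0, and PABPC4L 2 and 4 against 5 and 0.

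The base composition of a gene's listed isoforms went with its difference. The genes were divided by A+U content into 4 classes of equal size. In the poorest class (28.9% to 49.6%) the median log2 difference was 0.35, and in the following classes it was 0.59, 0.78 and 1.03. With replicate 2 as the only enzyme library these medians were 0.17, 0.20, 0.31 and 0.50, and with replicate 3 they were 0.56, 1.01, 1.28 and 1.59. Both libraries were above both buffer-only libraries in 28.7% of the genes of the poorest class and in 59.1% of the richest. Median editsC, the edited Cs of a gene as a percentage of its Cs, lay between 1.14% and 1.24% in the buffer-only libraries in all classes.

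Transcripts with the highest editsC were not those with the largest difference. EditsC counts a C as edited at any edit fraction, so it also depends on how many reads covered the gene. The 6 genes with the highest editsC with enzyme were RPS2, PTMA, RPL3, MARCKSL1, PDIA6 and CAPZA1. RPS2, a protein of the small ribosomal subunit, had 55.2% and 22.0% of its Cs edited with enzyme and 17.3% and 25.99% without. PTMA, prothymosin alpha, had 38.4% and 29.9% against 32.5% and 26.1%. CAPZA1, an actin-capping subunit, had 16.9% and 38.3% against 18.0% and 17.6%. None of the 6 passed limma's test, with adjusted p between 0.483 and 0.860, and in RPS2, PTMA, PDIA6 and CAPZA1 the groups overlapped.

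Of the transcripts reported as APOBEC1 targets in mouse or human, APOB was not listed, and B2M, TMEM30A and NF1 were tested. B2M, the light chain of class I antigen-presenting molecules, had 34 and 20 edited Cs with enzyme and 7 and 5 without (log2 difference 2.05 ± 0.58, adjusted p = 0.0543, limma). Of its Cs preceded by A, 15 and 10 were edited with enzyme and 1 in each buffer-only library. TMEM30A, a subunit of lipid flippases, had 10 and 32 against 7 and 8, and NF1, the neurofibromin transcript, had 14 and 50 against 12 and 18. None of the 3 passed limma's test (adjusted p = 0.397 for TMEM30A and 0.646 for NF1), and NF1's groups overlapped.

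Among the gene groups, nuclear-encoded respiratory chain genes had 29 members tested, and 2 of them, ATP5MG and NDUFB6, were called higher, where 0.546% of all genes were. Neither passed limma's test without any 1 of the 4 libraries (adjusted p from 0.0990 to 1). In this group both enzyme-only libraries were above both buffer-only libraries in 18 of 29 genes (62.1%, against 44.4% of all genes), and the median log2 difference was 1.09, against 0.69 over all genes. ATP5IF1, the inhibitor of the ATP synthase, had 17 and 16 edited Cs with enzyme and 6 and 1 without (adjusted p = 0.0734), and ATP5F1C, its gamma subunit, had 25 and 14 against 3 and 5 (adjusted p = 0.0697). Proteasome subunits had a median of 1.33, and 0 of 26 passed the adjusted test, while 14 had an unadjusted p under 0.05 in the higher direction (14.9% of all genes). The largest differences in this group were in PSMC6, with 2 and 21 against 2 and 0, where the groups overlapped, and PSMA5, with 10 and 7 against 5 and 0. PSMA1 had 43 and 31 against 5 and 13, and PSMD7 had 22 and 13 against 4 and 4.

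None of the 33 tested ribosomal protein genes was called (0.546% of all genes were), with a median log2 difference of 0.92. In 20 of the 33 (60.6%, against 44.4% of all genes) both enzyme-only libraries were above both buffer-only libraries. RPS7 had 15 and 26 edited Cs against 3 and 3. In this group enzyme-only replicate 2 alone gave the higher median (1.43) and replicate 3 alone the lower (0.35), the reverse of the order over all genes (0.29 and 1.133). Respiratory chain genes had 1.21 and 1.199 by the same measure, and proteasome subunits 1.31 and 0.80. The 2 enzyme-only libraries thus differed in which transcripts carried their excess.

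No member of the other groups was called. Translation factors had a median log2 difference of 0.63 (33 genes tested), and EIF4E, which binds the mRNA cap, had 57 and 92 edited Cs against 24 and 34. SR and hnRNP splicing proteins also had a median of 0.63 (30 genes), and SRSF10 had 92 and 169 against 57 and 42. Glycolysis enzymes had a median of 0.31 (10 genes), tubulins and actins 0.37 (9 genes) and chaperones 0.27 (30 genes), all under the median over all genes. GAPDH had 58 and 42 against 32 and 33, ACTG1 had 118 and 95 against 72 and 82, and DNAJA1, a co-chaperone, had 49 and 83 against 31 and 26. Long non-coding RNAs had a median of 0.55 (8 genes). NORAD had 28 and 91 against 24 and 25, and MALAT1 had 30 and 42 against 21 and 21.

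Isoforms gave a similar picture. Of 4438 isoforms, 36 were higher (0.811%) and 1 was lower (0.0225%) by limma at an adjusted p under 0.05. Leaving out 1 library gave 0 to 3, with 0 without either enzyme-only library, 2 without buffer-only replicate 1 and 3 without buffer-only replicate 2, and scaling to the same total gave 0. The 5 with the largest difference were isoforms of KLHL24, AIMP2 and SLC35A1, each the only listed isoform of its gene, and of ARID1B and CREBZF. The ARID1B isoform ENST00000636748 (chromosome 6, 156779400 to 156943901) had 30 and 84 edited Cs with enzyme and 0 and 19 without, and 80 and 0 in the RBFOX2-INSCRIBE libraries. The CREBZF isoform ENST00000490820, annotated for nonsense-mediated decay, had 10 and 24 against 2 and 0. Another CREBZF isoform, ENST00000527447, had 5 and 13 against 6 and 7.

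The 1 isoform that was lower belongs to HMGB1, a chromatin protein. ENST00000339872 (chromosome 13, 30459850 to 30464310) had no edited C in either enzyme-only library and 13 and 16 in the buffer-only libraries (adjusted p = 2.74e-05, limma). With 3 edited Cs per library as the floor it was at least 4.83-fold lower with enzyme. It also had 0 in both RBFOX2-INSCRIBE libraries. The other listed HMGB1 isoform, ENST00000341423, had 59 and 106 edited Cs with enzyme and 68 and 54 without. Of 324 genes with at least 2 isoforms tested, all isoforms were higher with enzyme in 226, and in 86 the isoforms differed in sign.

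Few listed sites recurred between replicates. Of the sites of enzyme-only replicate 2, 13.4% were also listed in replicate 3, which was 7.47% of the sites of replicate 3. The buffer-only libraries shared 9.08% and 9.24% of their sites. Cs edited in all 4 enzyme-treated libraries are missing from the lists, so the enzyme-only shares are lower than they would be with them. The shares of the groups are therefore not directly comparable. Of the 8764 sites in both enzyme-only libraries and neither buffer-only library, 47.0% had A before the C, 31.2% U, 16.01% G and 5.81% C. Of the 3491 sites in both buffer-only libraries and neither enzyme-only library, 12.9% had A and 49.1% had G. Some of these may be sites that were removed from the enzyme-treated lists. Sites listed in a single one of the 4 libraries had A before the C in 33.0% and 38.6% with enzyme and in 18.0% and 18.5% without.

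Sites seen in both enzyme-only libraries and in 1 RBFOX2-INSCRIBE library, but in no buffer-only library, numbered 4171, and 54.0% had A and 86.1% had A or U before the C. Of these sites, 62.8% lay in 3' UTRs. The 6 with the highest fraction in their lowest library include RBM3, RPS6KB1 and PLEKHA3 above and 3 more, chosen after their values were seen.
DCUN1D4: ctttggattACttaagatcat
GFPT1: tatcctactACtttgtgtttt
TTC4: tgtgctcttCCctctgctgtg
The DCUN1D4 site (chr4:51899299-51899319, plus strand, coding sequence) had 5% and 7.14% of its reads edited in enzyme-only replicates 2 and 3 and 7.89% in 1 RBFOX2-INSCRIBE library. GFPT1 (chr2:69325405-69325425, minus strand, 3' UTR) had 7.69%, 4% and 4.44% in the same order. TTC4 (chr1:54742452-54742472, plus strand, 3' UTR) had 5.56%, 5% and 3.85%, and it was the only 1 of the 6 with C before the edited C.

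The cell type was checked on the genes listed. Of 8 genes known from HEK293T cells (VIM, KRT8, KRT18, NEFL, NEFM, INA, PAX2 and CDH2), 6 were listed with 59 to 133 edited Cs in all per library, and KRT8 and PAX2 were not. Of 6 genes of mature kidney, leukocytes and liver, none was listed. A gene with no listed edit need not lack RNA.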

How the data were processed

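For each library the authors deposited an edit fraction (edited reads over all reads) per isoform and position, on hg38. They assembled and trimmed PacBio reads with ccs, skera, lima and refine, aligned them with pbmm2, assigned unique reads to isoforms with IsoQuant and used their own scripts to call C-to-U edits. Edits found in all replicates and samples, and dbSNP positions, were removed by the authors. No read numbers accompany the fractions, so depth is unknown and no interval was computed.

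Isoforms were matched to GENCODE release 44. A site is a position counted once per library, with its highest fraction over isoforms, and edits on the isoform's strand were counted unless stated. EditsC is the number of edited Cs as a percentage of the Cs in the listed isoforms. Rates per C used the isoforms listed in all 4 libraries. Genes, isoforms and the 256 contexts of 2 bases on each side were compared with limma 3.58.1 in R 4.3.3 (eBayes with trend and robust; adjusted p by Benjamini-Hochberg). The value fitted was log2 of the edited Cs, with 0.5 added, over all Cs. Genes and isoforms needed 5 or more edited Cs on average. Contexts were taken relative to the overall rate of the library. Simulated data with known changes were fitted for contexts in the same way. For genes and isoforms the simulated libraries were scaled to the same total, so the unscaled fits reported were not tested. Single values were compared by two-sided exact permutation over libraries. Python 3.11.15 with pandas 2.3.3 and numpy 2.4.6 was used.

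Named genes were the 12 highest and 5 lowest by log2 difference among genes past an adjusted p of 0.05 whose libraries did not overlap (filled by unadjusted p), the 6 with the highest editsC at a mean of at least 20 edited Cs, and up to 4 with the largest difference in each of 11 gene lists. For isoforms the rule took the 5 highest and any lower one called. For sites it took the 10 with the highest mean fraction, at most 80%, in both enzyme-only and neither buffer-only library. Of these, 2 are not reported here. The members, lists and tests were chosen with earlier results of these data known.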

Additional observations from a re-analysis of the deposited data

Results flagged for a closer look

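The RBFOX2-INSCRIBE libraries lie outside the comparison of enzyme-only with buffer-only. They were looked at again because the share of edited Cs preceded by A was 40.1% and 40.9% in them, above both buffer-only libraries (19.1% and 19.6%) and also above both enzyme-only libraries (33.3% and 37.8%). Their ratio of the rates after A and after G was 2.50 and 2.67. Whether this difference from enzyme-only exceeds the spread between slides was not tested.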

How the results depend on the processing

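The differences in the share of edited Cs preceded by A (16.2 points) and in 3' UTRs (8.50 points), the ratio of sites (1.66) and the difference in median fraction (0.167 points) kept their direction under all alternatives run, and those that kept all libraries moved them by less than the spread between replicates. Leaving out 1 of 2 libraries must move a mean by less than the SD, so it shows nothing about stability. The values then ranged from 13.9 to 18.5, 6.52 to 10.5, 1.19 to 2.13 and 0.0923 to 0.242. The counts of genes and isoforms moved most. The 23 genes became 35 with a pseudocount of 0.1, 66 in a fit with all 3 groups, 8 with a minimum mean of 1 edited C, 5 with a minimum of 10, 0 at fractions of at least 0.02, 0 after scaling to the same total and 0 without trend and robust settings. The 37 isoforms became 24 with a pseudocount of 1, 82 with all 3 groups, 6 and 8 with a minimum of 1 and 10, and 0 in the last 3 settings. Leaving out 1 library gave 0 to 1 genes, 0 to 3 isoforms and 98 to 221 contexts. On the absolute rate the 208 contexts became 45. The median log2 difference per gene (0.69) was 0.038 after scaling and 0.29 to 1.133 without 1 library. With only Cs preceded by A, added once the data were seen, the gene count was 338 and the median 1.63, and with only Cs preceded by C or G they were 1 and -0.12, a change of sign. At an unadjusted p under 0.05, limma gave 341 genes after scaling (217 higher), 185 at fractions of at least 0.02 and 471 without trend and robust settings. The causes of these changes were not tested.

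With the labels' replicate field as a replicate block, 8 genes, 12 isoforms and 205 contexts were called. Libraries of the same number in this field did not deviate together (r = -0.036 over genes). Whether they shared a preparation is unknown.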

Other observations

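In coding sequence, the expected effect of each C-to-U change was read from the codon (5411 coding isoforms, 1986170 Cs). A change that would create a stop codon was found for 7.98% and 8.37% of edited Cs with enzyme, for 8.21% and 8.24% without and for 7.87% of all Cs. Of the Cs preceded by A, 2.51% and 4.86% of those that would create a stop codon were edited with enzyme and 1.70% and 1.53% without. Of those that would be synonymous, 2.46% and 4.51% were edited with enzyme and 1.33% and 1.38% without. The third codon position held 34.9% and 34.2% of edited Cs with enzyme, 32.4% and 32.3% without and 35.0% of all Cs. Both enzyme-only libraries and neither buffer-only library listed 246 sites that would create a stop codon.

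Some isoforms were at 0 in one library and well covered in its replicate. Enzyme-only replicate 2 was at 0 for 174 isoforms with 10 or more edited Cs in replicate 3, and the reverse held for 11. Between the buffer-only libraries these numbers were 7 and 8, and between the RBFOX2-INSCRIBE libraries 72 and 60. Of the 36 isoforms called higher, 16 had 0 edited Cs in at least 1 buffer-only library.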
